A study of Mus musculus with 18 samples.

Results

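The 9 genes described here encode the 5 subunits of the transcription factor NF-kappaB (Nfkb1, Nfkb2, Rela, Relb and Rel), 3 classical IkappaB inhibitors (Nfkbia, Nfkbib and Nfkbie) and the ubiquitin-editing enzyme that shuts the pathway off (Tnfaip3). They were taken by symbol from the 35560 genes that the 2 deposited count tables have in common, and all 9 had enough counts to be tested. RNA was measured by poly(A) sequencing of heart tissue from male wild-type C57BL/6 mice. Every mouse received isoproterenol (ISO), a beta-adrenergic agonist that overloads the heart, by subcutaneous injection at 2.5 mg/kg/day for 21 days. Over the same days, 1 group also received polystyrene (PS) particles of 100 nm by gavage, another PS particles of 1 µm, both at 50 mg/kg/day, and the ISO group was gavaged with water. There were 6 libraries per group. No heart without ISO was measured, so the comparisons are of PS on top of ISO, at 1 dose and 1 time. The batch named in the labels is the provider that made the libraries: batch 1 held 5 libraries of 100 nm PS, 4 of 1 µm PS and 3 of ISO, and batch 2 held 1, 2 and 3.

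NF-kappaB proteins work as dimers. In resting cells IkappaB proteins hold the dimers in the cytoplasm, and signals from cytokine or Toll-like receptors activate the IkappaB kinase complex, which marks IkappaB for destruction so that dimers enter the nucleus. In the canonical branch the dimer is mainly the Nfkb1 product with Rela, and in the non-canonical branch it is the processed Nfkb2 product with Relb, released through the kinase encoded by Map3k14. Several inhibitors are themselves targets of the factor, which closes a negative feedback loop. In the heart the pathway is known from myocytes, endothelial cells, fibroblasts and infiltrating leukocytes during stress and inflammation. RNA levels do not show whether the proteins were in the nucleus.

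Promoters of the genes were searched for the letters of the kappaB site, the DNA sequence the dimers bind. RefSeq promoter windows of GRCm38.p6, reaching from 250 bases before to 50 after a start site, were given for 7 of the 9 genes, those other than Nfkb1 and Relb. The kappaB consensus, searched on both strands and by its letters alone, occurred in windows of 5 of the 7 (Nfkb2, Rel, Nfkbia, Nfkbie and Tnfaip3), against 5.14% of the 27025 genes in the same table and 4.51% of its 32851 windows. The windows of Rela and Nfkbib held no match, which says only that these letters are not in them. The 100-base stretches below show 2 feedback inhibitors with their matches, Nfkb2 with overlapping matches in 1 run and a further match near its start site, and Rela without any; each reads 5′ to 3′ on the gene's strand, ends 1 base before the start site, and has its consensus matches, on either strand, in capitals.
Nfkbia, chr12:55492648-55492747, minus strand: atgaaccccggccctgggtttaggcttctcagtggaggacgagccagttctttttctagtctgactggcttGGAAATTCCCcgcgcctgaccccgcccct
Tnfaip3, chr10:19015411-19015510, minus strand: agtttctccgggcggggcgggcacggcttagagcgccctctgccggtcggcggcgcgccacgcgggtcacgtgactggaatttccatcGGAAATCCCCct
Nfkb2, chr19:46304637-46304736, plus strand: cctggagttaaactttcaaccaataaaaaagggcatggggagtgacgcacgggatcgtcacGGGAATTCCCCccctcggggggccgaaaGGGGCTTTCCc
Rela, chr19:5637441-5637540, plus strand: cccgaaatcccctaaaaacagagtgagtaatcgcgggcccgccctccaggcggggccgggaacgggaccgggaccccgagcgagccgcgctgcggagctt
A match is a description of the letters and not evidence of binding in these hearts.

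RNA of 3 subunits was higher in the PS hearts at both particle sizes: Nfkb1 and Rela, the partners of the canonical dimer, and Nfkb2, the precursor subunit of the non-canonical branch. Averaged over both PS groups, Nfkb1 was 1.38-fold (95% confidence interval 1.17 to 1.64), Rela 1.43-fold (1.23 to 1.65) and Nfkb2 1.69-fold (1.31 to 2.18) of its ISO level. These calls changed when each library was corrected for GC content, the share of G and C bases in a transcript: none of the 3 then passed at either size, where 0.00684% of all genes passed at 100 nm and 0.0137% at 1 µm, and Nfkb1 was the only one that passed for both PS groups. The GC-corrected log2 fold change for both PS groups was 0.53 for Nfkb1, 0.20 for Nfkb2 and -0.086 for Rela. Rela thus turned below 0, where the median of all genes was -0.13. RNA of the other 6 genes did not pass the test at either size, and none of the 9 passed between the sizes. The test was edgeR's quasi-likelihood test over all 18 libraries with batch as a term, and p-values were adjusted (Benjamini-Hochberg) over 14623 genes, with 0.05 as the threshold. Of the 9 genes, 3 passed as higher and 0 as lower against ISO at 100 nm, at 1 µm and for both PS groups. Among all genes tested, 3.88% were higher and 5.69% lower at 100 nm (9.57% in all), 2.89% and 4.5% at 1 µm (7.39% in all), and 6.8% and 10.9% for both PS groups (17.7% in all). The 2 sizes were set against the same ISO libraries, so their results are not separate evidence.

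**Figure D1:**
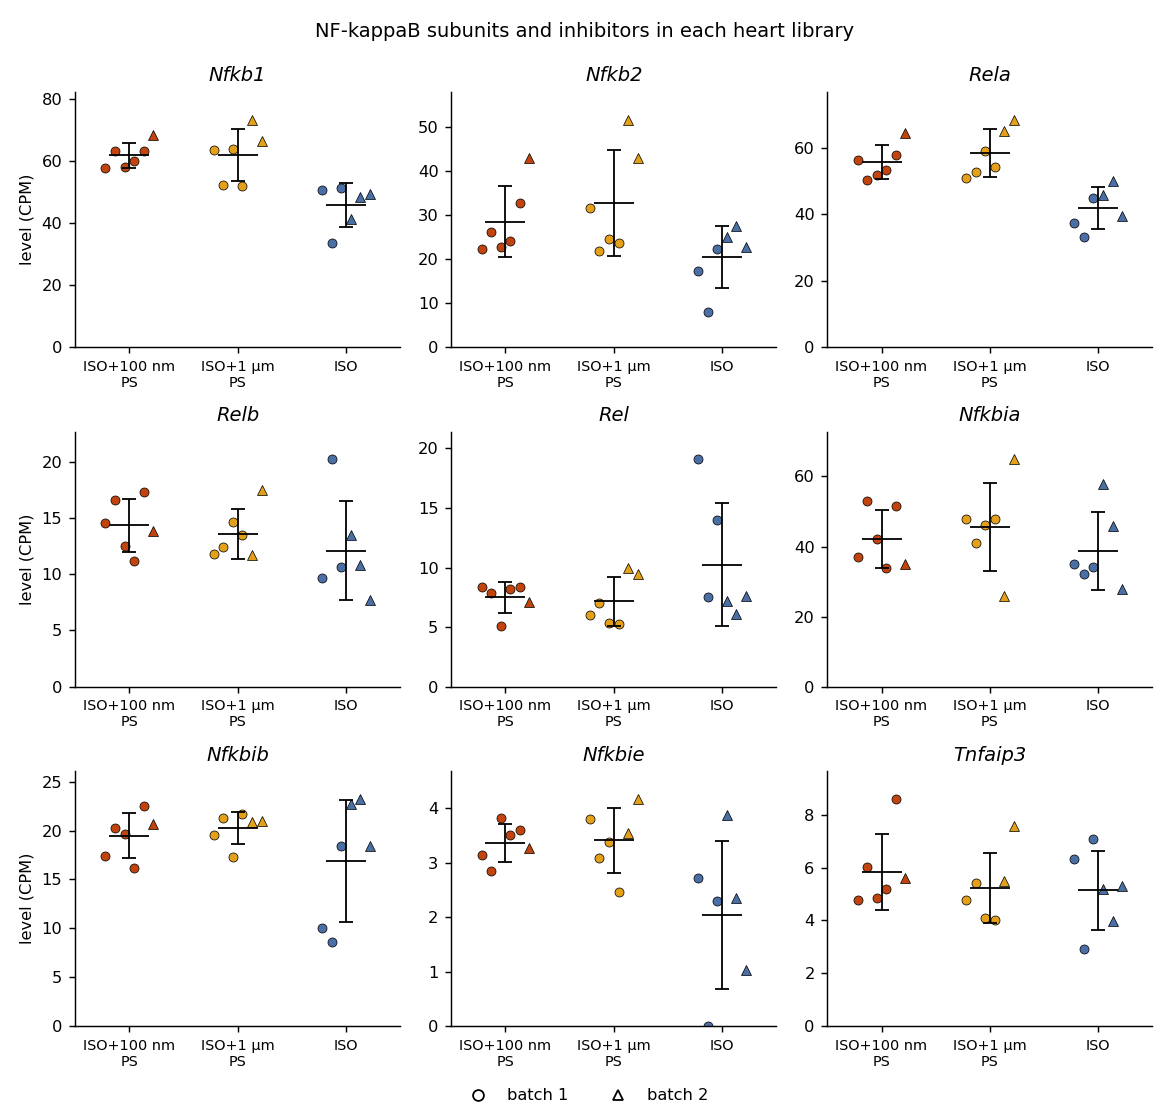
Scaled level of each gene (CPM, vertical axis from 0) in the 18 heart libraries, with ISO+100 nm PS, ISO+1 µm PS and ISO from left to right; circles are batch 1, triangles batch 2, and bars show mean and SD of 6 libraries. All 12 PS libraries lie above all 6 ISO libraries for Nfkb1 and Rela, and the groups overlap for the other 7 genes.

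The 2 tables are on 1 scale only after library scaling; CPM here divide a count by the library's size times its TMM scaling factor. Depth lay between 14032257 and 22600570 counts per library. In the ISO group, 2 batch 1 libraries stood apart in mitochondrial share or in genes detected. Replicate 1 drew 42.6% of its joined counts from mitochondrially encoded protein genes, where the rest of the ISO group drew 15.1% to 24.2%. Replicate 2 had 13152 genes detected, and the rest had 16562 to 17913. Several results are therefore also given without both. In the GC trend described below, ISO replicate 6 of batch 2 (Spearman correlation -0.606) was as low as replicate 1 (-0.6), and it stays in those fits. In batch 1, 98.9% to 99.5% of all counts fell on joined genes; in batch 2 the share was 93.1% to 95.8% in PS libraries and 85.2% to 87.4% in ISO libraries. In bulk heart tissue, fewer cells of a type and less RNA per cell cannot be told apart. The labels give 1 library per numbered sample and do not describe the mice further, so the p-values measure the spread between these samples.

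Rela encodes the transactivating partner of the canonical dimer. Its level had a lowest, median and highest value of 50.3, 54.8 and 64.3 CPM in 100 nm PS hearts, of 50.8, 56.6 and 68.4 CPM in 1 µm PS hearts, and of 33.2, 42.2 and 50.1 CPM in ISO hearts. The lowest PS library lay just above the highest ISO library, and within each batch the groups did not overlap either. Among all genes tested, 0.574% (84 genes) had every PS library above every ISO library and 0.239% had every one below. The log2 fold change over ISO was 0.50 ± 0.12 (SE, adjusted p = 0.0192) at 100 nm and 0.52 ± 0.11 (adjusted p = 0.0178) at 1 µm. In batch 1 alone it was 0.48 (adjusted p = 0.0685) and 0.49 (adjusted p = 0.0887) at 100 nm and 1 µm, and in batch 2 alone, where 100 nm PS has 1 library, 0.52 (adjusted p = 0.565) and 0.55 (adjusted p = 0.212). After GC correction it turned to -0.11 (adjusted p = 0.603) at 100 nm and -0.058 (adjusted p = 0.831) at 1 µm. The median of all genes was then -0.16 and -0.10.

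Nfkb1 encodes the precursor of the DNA-binding subunit that pairs with the Rela product. It had 57.8, 61.6 and 68.3 CPM (lowest, median and highest) in 100 nm PS hearts, 52.1, 63.7 and 73.4 CPM in 1 µm PS hearts and 33.4, 48.9 and 51.3 CPM in ISO hearts. Here too every PS library was above every ISO library, by less than 1 CPM at the closest. The log2 fold change was 0.48 ± 0.13 (SE, adjusted p = 0.0328) at 100 nm and 0.46 ± 0.13 (adjusted p = 0.0404) at 1 µm. Within batch 1 it was 0.41 (adjusted p = 0.151) and 0.35 (adjusted p = 0.251), and within batch 2 it was 0.56 (adjusted p = 0.539) and 0.57 (adjusted p = 0.197). Among 100 nm PS libraries the SD of log2 CPM was 0.0911 for Nfkb1 and 0.129 for Rela.

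Nfkb2, whose product is cut to the subunit that pairs with the Relb product, varied more. Its level was 22.4, 25.1 and 42.9 CPM (lowest, median and highest) in 100 nm PS hearts, 21.9, 28.1 and 51.7 CPM in 1 µm PS hearts and 7.88, 22.5 and 27.5 CPM in ISO hearts. The groups overlapped over all libraries: 5 of 12 PS libraries lay above the highest ISO library, while 12 of 12 lay above the ISO mean of their own batch. Nfkbie, which did not pass the test, also had 12 of 12 above that mean. The share of all genes with such counts was not computed. In batch 2 all 3 PS libraries, at 42.9, 51.7 and 43.0 CPM, were above the ISO libraries. The lowest ISO value, 7.88 CPM, was in replicate 2. Its log2 fold change was 0.74 ± 0.20 (SE, adjusted p = 0.0308) at 100 nm and 0.78 ± 0.19 (adjusted p = 0.0262) at 1 µm. Within batch 1 it was 0.68 (adjusted p = 0.155) and 0.67 (adjusted p = 0.195), and within batch 2 it was 0.78 (adjusted p = 0.426) and 0.89 (adjusted p = 0.0844). After GC correction it was 0.17 (adjusted p = 0.580) at 100 nm and 0.23 (adjusted p = 0.484) at 1 µm.

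The remaining subunits, Relb and Rel, did not pass the test. Relb, the non-canonical partner, had 11.2, 14.2 and 17.3 CPM (lowest, median and highest) in 100 nm PS hearts, 11.7, 13.0 and 17.5 CPM in 1 µm PS hearts and 7.70, 10.7 and 20.2 CPM in ISO hearts. All of its PS values lay inside the ISO range, whose top was ISO replicate 2, and the log2 fold change over ISO was 0.22 ± 0.21 (SE, adjusted p = 0.506) at 100 nm and 0.16 ± 0.20 (adjusted p = 0.639) at 1 µm. Rel, the subunit best known from lymphocytes and myeloid cells, had 5.07, 8.04 and 8.40 CPM in 100 nm PS hearts, 5.26, 6.52 and 9.95 CPM in 1 µm PS hearts and 6.11, 7.56 and 19.1 CPM in ISO hearts. It was the only one of the 9 genes with log2 fold changes below 0, at -0.47 ± 0.28 (adjusted p = 0.269) and -0.50 ± 0.28 (adjusted p = 0.247). In batch 1 alone its log2 fold change was -0.84 (adjusted p = 0.0867) at 100 nm and -1.20 (adjusted p = 0.0479) at 1 µm, and in batch 2 alone, where 100 nm PS has 1 library, it was 0.025 (adjusted p = 0.988) and 0.45 (adjusted p = 0.371). The 2 highest ISO values, 19.1 and 14.0 CPM, belonged to batch 1 replicates 1 and 3. Whether the batches differ was not tested.

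The 3 IkappaB genes showed no change that passed the test. Nfkbia encodes the fast feedback inhibitor and had 33.9, 39.7 and 52.9 CPM (lowest, median and highest) in 100 nm PS hearts, 26.0, 47.0 and 65.0 CPM in 1 µm PS hearts and 27.8, 34.5 and 57.8 CPM in ISO hearts. Its groups overlapped widely, with log2 fold changes of 0.16 ± 0.23 (SE, adjusted p = 0.677) and 0.25 ± 0.22 (adjusted p = 0.471). For Nfkbib, an inhibitor known for slower turnover, the values were 16.2, 19.98 and 22.5 CPM in 100 nm PS hearts, 17.3, 20.9 and 21.7 CPM in 1 µm PS hearts and 8.65, 18.4 and 23.3 CPM in ISO hearts. The 2 low Nfkbib values, 9.99 and 8.65 CPM, were ISO replicates 1 and 2; its log2 fold change for both PS groups was 0.37 ± 0.17 (adjusted p = 0.147), and -0.0071 without those 2 libraries. Nfkbie had the lowest counts of the 3, at 2.85, 3.39 and 3.82 CPM in 100 nm PS hearts, 2.46, 3.46 and 4.18 CPM in 1 µm PS hearts and 0, 2.33 and 3.88 CPM in ISO hearts. The 0 was ISO replicate 2, where a count of 0 allows up to 0.232 CPM (3 counts, counting error only). The Nfkbie log2 fold change for both PS groups was the largest of the 9 genes at 0.82, but with an SE of 0.45 (adjusted p = 0.208). It was 0.49 without ISO replicate 2, and 0.56 without ISO replicates 1 and 2, where that of Nfkb2 was 0.59.

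Tnfaip3, which removes and rebuilds ubiquitin chains on signalling proteins upstream of the IkappaB kinase, had 4.78, 5.40 and 8.61 CPM (lowest, median and highest) in 100 nm PS hearts, 4.01, 5.10 and 7.58 CPM in 1 µm PS hearts and 2.93, 5.25 and 7.09 CPM in ISO hearts. The medians of the 3 groups lay close together. Its log2 fold change was 0.22 ± 0.25 (SE, adjusted p = 0.588) at 100 nm and 0.029 ± 0.24 (adjusted p = 0.954) at 1 µm. Over the 9 genes the median log2 fold change was 0.37 at each size, with 8 of 9 above 0. The median of all genes tested was -0.023 at 100 nm and -0.0022 at 1 µm. After the GC correction described below, 4 of 9 were above 0 and their median was -0.11 at 100 nm and -0.017 at 1 µm. The median of all genes was then itself below 0, at -0.16 and -0.10.

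**Figure D2:**
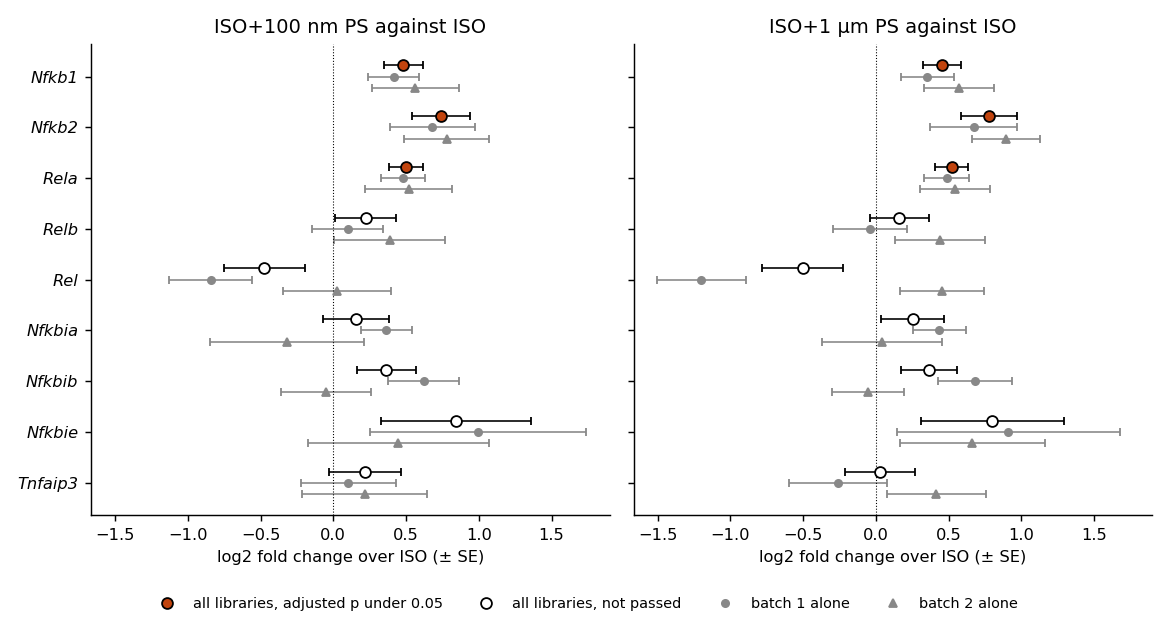
Log2 fold change over ISO with its SE (horizontal axis) for each gene, at 100 nm PS (left) and 1 µm PS (right), from all libraries (large circles, filled where adjusted p was under 0.05), batch 1 alone (small circles) and batch 2 alone (triangles). Nfkb1, Nfkb2 and Rela lie right of 0 in all 3 fits at both sizes, and so does Nfkbie, which did not pass. Rel lies left of 0 in batch 1 and, in batch 2, at 0.025 (100 nm) and 0.45 (1 µm).

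No difference between the particle sizes passed the test. Between 1 µm and 100 nm PS, 0 of 9 genes passed, where 0% of all genes did; by edgeR's quasi-likelihood test 49 of the 14623 genes had an unadjusted p under 0.05, none of them among the 9, and DESeq2 called 0 of the 9 as well. The smallest adjusted p of any gene was 0.99994. With no difference at all, a share of 0.05 of genes would be expected under that unadjusted threshold, and 49 of 14623 is far fewer. Without ISO replicates 1 and 2, 221 of 15028 genes had an unadjusted p under 0.05 by the same test. All 18 libraries, ISO included, shared 1 estimate of the spread, so these p-values do not show that the sizes were alike. The log2 difference of 1 µm from 100 nm was 0.021 for Rela (95% confidence interval -0.22 to 0.26), -0.026 for Nfkb1 (-0.30 to 0.24) and 0.037 for Nfkb2 (-0.37 to 0.44). The widest interval was that of Nfkbie, from -1.04 to 0.96, and its SE was 0.478 with all libraries and 0.237 without ISO replicate 2, the library with the count of 0.

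The calls against ISO changed with a correction for GC content and with a few libraries left out. Across genes, a library's deviation from its batch mean ran with GC content at Spearman correlations of 0.124 to 0.369 in all 12 PS libraries and -0.606 to 0.008 in ISO libraries, and Rela (59.4% GC in its longest transcript), Nfkb2 (59.4%), Nfkbib (58.8%) and Relb (56.8%) lie well above the 49.8% median of tested genes. After each library was corrected for GC content, which moved the median of all genes to -0.16 at 100 nm, -0.10 at 1 µm and -0.13 for both PS groups, the log2 fold change of Rela for both PS groups turned to -0.086 (adjusted p = 0.638) and that of Nfkb2 shrank to 0.20 (adjusted p = 0.42). Nfkb1, whose transcript has 44.9% GC, did not shrink: its GC-corrected log2 fold change was 0.53 for both PS groups (adjusted p = 0.0151, where 12.5% of genes passed) and 0.53 at each size (adjusted p = 0.0531 at 100 nm, where 0.00684% of genes passed, and 0.0934 at 1 µm, where 0.0137% did). The GC trend runs with the groups, so a trend from library making and a change of GC-rich transcripts cannot be told apart. Without ISO replicates 1 and 2, the log2 fold changes for both PS groups were 0.43 for Nfkb1 (adjusted p = 0.0251), 0.59 for Nfkb2 (adjusted p = 0.0251) and 0.43 for Rela (adjusted p = 0.0201), where 10.3% of genes passed. At 100 nm, none of the 3 passed without them (0.44, 0.56 and 0.41, with adjusted p of 0.0536, 0.0648 and 0.0534), where 4.03% of genes passed; at 1 µm all 3 passed, as did 6.47% of genes. With both changes together, an alternative chosen after seeing the data, 0 of 9 genes passed in any comparison, where 0 of 15028 genes did, and Nfkb1 stood at 0.59, Nfkb2 at 0.32 and Rela at 0.16 for both PS groups.

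**Figure D3:**
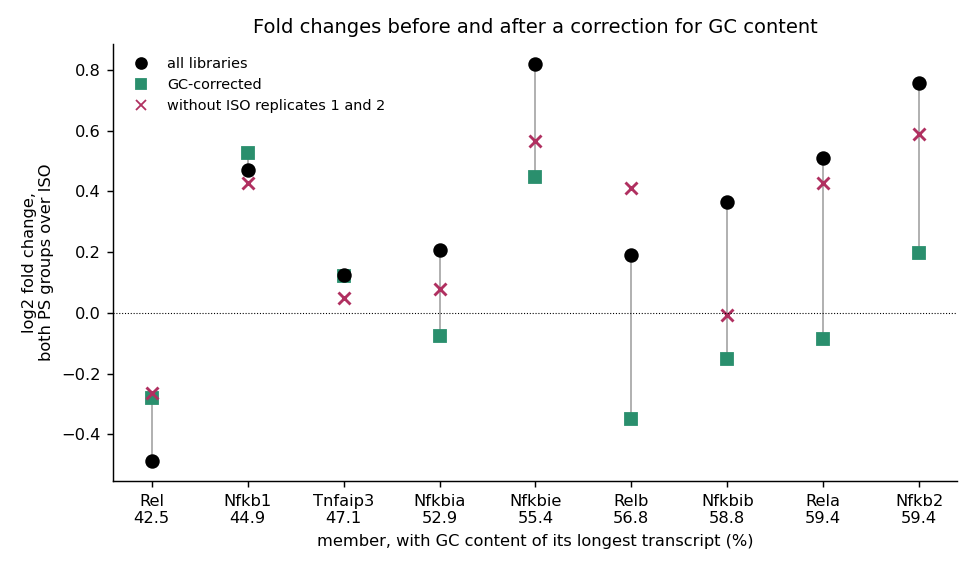
Log2 fold change of both PS groups over ISO (vertical axis) for the 9 genes in order of the GC content of their longest transcript, from all libraries (circles), after GC correction (squares) and without ISO replicates 1 and 2 (crosses). The correction moved Rela to -0.086 and Nfkb2 to 0.20 and left Nfkb1 at 0.53.

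Leaving out single libraries ended some calls of 1 size against ISO. For both PS groups against ISO, Nfkb1, Nfkb2 and Rela passed with each of the 18 libraries left out in turn. In those fits between 1925 of 14823 and 3458 of 14833 genes passed, against 2590 of 14623 with all libraries. At 100 nm, Rela passed in 17 of 18 cases, failing without 100 nm PS replicate 6, the only batch 2 library of that group, with an adjusted p of 0.0607. In that fit 170 of 14823 genes passed. Over the 18 cases at 100 nm up to 2283 of 14833 did, against 1399 of 14623 with all libraries. At that size Nfkb1 passed in 11 cases and failed without ISO replicate 4 or any 1 of the 6 libraries of 100 nm PS, with log2 fold changes of 0.39 to 0.56 and adjusted p of 0.0141 to 0.087 over the 18 cases. Nfkb2 also passed in 11 and failed without ISO replicate 4 or 6 or 100 nm PS replicate 1, 2, 3, 5 or 6 (0.56 to 0.94, adjusted p 0.00738 to 0.0781). At 1 µm, Rela passed in 18 of 18. Over these cases between 265 of 14811 and 2334 of 14833 genes passed, against 1081 of 14623 with all libraries. Nfkb2 passed in 13 and failed without ISO replicate 4 or 6 or 1 µm PS replicate 1, 3 or 5 (0.62 to 0.95, adjusted p 0.00489 to 0.0657). Nfkb1 passed in 4, those without ISO replicate 1, 2, 3 or 5 (0.37 to 0.52, adjusted p 0.0147 to 0.0858).

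Per kilobase of longest transcript, which allows levels to be compared between genes, Nfkbia was highest in every group, at 26.7 ± 5.27 CPM per kb in 100 nm PS hearts, 28.9 ± 7.97 in 1 µm PS hearts and 24.6 ± 7.03 in ISO hearts (SD, n = 6 each). Rela followed at 20.5 ± 1.88, 21.5 ± 2.63 and 15.4 ± 2.29, and Nfkb1 at 14.9 ± 0.956, 14.9 ± 2.00 and 11.0 ± 1.70 CPM per kb, in the same order of groups. Below them came Nfkbib, Nfkb2 and Relb, the last at 4.38, 4.15 and 3.69 CPM per kb. Rel, Tnfaip3 and Nfkbie shared the bottom, at 0.681 to 1.37 CPM per kb, with their ranges overlapping in every group. In ISO hearts each gene's range overlapped that of its neighbour in this order. In both PS groups, the ranges were apart between Rela and Nfkb1, Nfkb1 and Nfkbib, Nfkb2 and Relb, and Relb and Nfkbie.

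**Figure D4:**
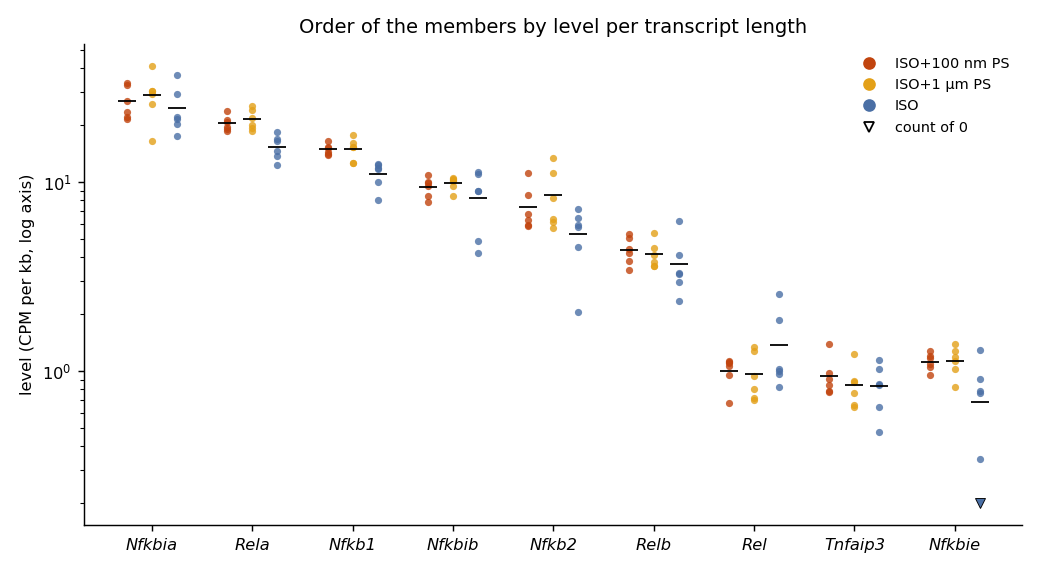
Level per transcript length (CPM per kb, log axis) of each gene in each library, in the order of the ISO means, with 100 nm PS, 1 µm PS and ISO from left to right within a gene; dashes are group means and the triangle marks the library with a count of 0. Nfkbia, Rela and Nfkb1 lead in all groups, and Rel, Tnfaip3 and Nfkbie are lowest.

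The 3 genes with the largest spread over libraries after centring by batch were Nfkbie, Nfkb2 and Rel. Over the 18 libraries and 12470 genes with at least 1 CPM on average, the patterns most like theirs, by root mean square difference of batch-centred log2 CPM, were those of Irf2bpl (0.0965) and Dab2ip (0.123) for Nfkb2, where the median over genes was 0.623. For Rel they were Dyrk2 (0.229) and Gpat3 (0.230), with a median of 0.630, and for Nfkbie they were Sqle (0.291) and Jund (0.316), with a median of 1.18. The lowest centred values of Nfkbie (-4.49) and Nfkb2 (-1.47) were both in ISO replicate 2, where Nfkbie had a count of 0. That library weighs heavily in both spreads and in the likeness to them. The libraries share group, batch and depth, so likeness is a description of these libraries.

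Upstream of the subunits, the ligands that start the pathway showed no change that passed: 7 of the 12 listed were measured well enough to be tested, and 0 rose or fell in any comparison with ISO. Tnf, Il18, Il33, Ltb, Tnfsf10, Tnfsf12 and Tnfsf13b were tested, while Il1a, Il1b, Lta, Tnfsf11 and Cd40lg had too few counts. The smallest p was that of Tnfsf12, the ligand also called TWEAK, at 0.56 ± 0.23 on the log2 scale for both PS groups (SE, adjusted p = 0.0984); GC correction took it to 0.0026, and it was 1.02 in batch 1 alone and -0.036 in batch 2 alone.

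Receptors and adaptors included genes that passed in both directions. Of 23 tested, 5 were higher and 1 lower for both PS groups, and 4 and 1 at each size, with a median log2 fold change of 0.072. Among all genes, as given above for the 9, 6.8% were higher and 10.9% lower for both PS groups, which is the share to set beside this and the following counts. Tnfrsf1a, the main receptor for tumour necrosis factor, had 93.9 ± 10.8 CPM in 100 nm PS hearts, 89.8 ± 10.6 in 1 µm PS hearts and 65.0 ± 8.57 in ISO hearts (SD, n = 6 each), which is 0.56 ± 0.11 higher on the log2 scale for both PS groups (SE, adjusted p = 0.00395). Ltbr, the lymphotoxin beta receptor that feeds the non-canonical branch, rose by 0.62 ± 0.13 (adjusted p = 0.00611), and Tnfrsf1b, the other receptor for tumour necrosis factor, by 0.63 ± 0.16 (adjusted p = 0.0143). Ltbr was at 44.7 ± 4.88 CPM in 100 nm PS hearts, 47.3 ± 5.65 in 1 µm PS hearts and 33.2 ± 11.1 in ISO hearts, and Tnfrsf1b at 21.9 ± 2.67, 22.9 ± 5.06 and 14.6 ± 3.71 CPM in the same order of groups. Birc2, a ubiquitin ligase that keeps the Map3k14 kinase low, fell by 0.56 ± 0.13 (adjusted p = 0.00929) on the log2 scale, although its level overlapped between groups, at 20.4 ± 4.62, 20.3 ± 7.20 and 25.8 ± 9.09 CPM in 100 nm PS, 1 µm PS and ISO hearts. Irak4, a kinase of Toll-like receptor signalling (0.63), and the adaptor Ticam1 (0.44) also rose and are named here after their values were seen. After GC correction 1 receptor or adaptor was higher (the adaptor Traf5, named after its values were seen) and 0 were lower for both PS groups. The correction took Tnfrsf1a to 0.095, Ltbr to 0.0039 and Tnfrsf1b to 0.29, while Birc2 stood at -0.51 (adjusted p = 0.0677), where 12.5% of all genes passed. Without ISO replicates 1 and 2, 4 of the 23 were higher and 1 lower, where 10.3% of all genes passed. Tnfrsf1a was then at 0.52 (adjusted p = 0.0159), Ltbr at 0.40 (0.0331), Tnfrsf1b at 0.77 (0.0159) and Birc2 at -0.51 (0.0392).

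Of 12 kinases and their partners, 2 were higher and 1 lower for both PS groups, 0 passed at 100 nm and 1 was higher at 1 µm. Map3k14, the kinase of the non-canonical branch, averaged 7.63 ± 1.32 CPM in 100 nm PS hearts, 8.14 ± 0.857 in 1 µm PS hearts and 5.30 ± 1.94 in ISO hearts (SD, n = 6 each), a rise of 0.70 ± 0.20 on the log2 scale (SE, adjusted p = 0.0209). The catalytic subunits of the IkappaB kinase went opposite ways for both PS groups: Ikbkb, which serves the canonical branch, rose by 0.34 ± 0.11 (adjusted p = 0.0472), and Chuk, which serves the non-canonical one, fell by 0.44 ± 0.12 (adjusted p = 0.0211). None of the 12 passed after GC correction, where Map3k14 stood at 0.20, Ikbkb at 0.14 and Chuk at -0.25, and without ISO replicates 1 and 2 the counts were 0 higher and 1 lower, with Map3k14 at 0.35 and Ikbkb at 0.29 (adjusted p = 0.134). With 1 library left out at a time, Ikbkb passed in 3 of 18 cases.

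Among 18 genes of the ubiquitin machinery and atypical IkappaB proteins, 1 was higher and 2 lower for both PS groups, 0 and 1 at 100 nm and 1 and 1 at 1 µm. The 2 of 18 that were lower are a share near that of all genes. Skp1, a core part of the ubiquitin ligase that marks IkappaB for destruction, had 107 ± 3.58 CPM in 100 nm PS hearts, 109 ± 8.67 in 1 µm PS hearts and 179 ± 48.1 in ISO hearts (SD, n = 6 each). It fell by 0.70 ± 0.14 on the log2 scale (SE, adjusted p = 0.00408), and by 0.61 after GC correction (adjusted p = 0.0111). Tnip1, which helps the Tnfaip3 product bind its substrates, rose by 0.74 ± 0.20 (adjusted p = 0.0194) and stood at 0.27 after GC correction. Rnf11, another partner of Tnfaip3, fell by 0.67 ± 0.21 (adjusted p = 0.0363), with 69.8 ± 11.4, 71.7 ± 11.2 and 106.5 ± 59.1 CPM in 100 nm PS, 1 µm PS and ISO hearts, and passed in 7 of 18 cases with 1 library left out. Its log2 fold change was -0.31 without ISO replicate 1 and -0.39 after GC correction (adjusted p = 0.087). Without ISO replicates 1 and 2, Rnf11 was at -0.56 (adjusted p = 0.0245), Skp1 at -0.64 (0.00944) and Tnip1 at 0.44 (0.039), where 10.3% of all genes passed.

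Genes known as targets of NF-kappaB passed at shares near those of all genes. Of 27 listed, 24 were tested; for both PS groups 1 was higher and 2 lower, against 6.8% and 10.9% of all genes, with a median log2 fold change of 0.12; 0 passed at 100 nm, and 0 were higher and 1 lower at 1 µm. After GC correction 0 were higher and 4 lower for both PS groups (Cd83, Ccl7, Bcl2a1b and Ccl5), where 12.5% of all genes passed in either direction. Without ISO replicates 1 and 2, 1 was higher (Cx3cl1) and 0 lower, where 10.3% of all genes passed. Cd83, Ccl5 and Cx3cl1 are named after their values were seen. Icam1, an adhesion molecule for leukocytes, had 24.9 ± 2.87 CPM in 100 nm PS hearts, 25.05 ± 6.12 in 1 µm PS hearts and 18.0 ± 3.44 in ISO hearts (SD, n = 6 each), a rise of 0.51 ± 0.15 (SE, adjusted p = 0.0256) that was 0.095 after GC correction and 0.48 without ISO replicates 1 and 2 (adjusted p = 0.0824). Ccl7, a monocyte chemokine, fell by 2.02 ± 0.53 on the log2 scale (adjusted p = 0.0158), and its value without ISO replicates 1 and 2 was -0.63 (adjusted p = 0.51) and without ISO replicate 2 alone -1.26, where it did not pass. Bcl2a1b, a survival gene with near-identical copies whose reads may be shared, fell by 1.36 ± 0.43 (adjusted p = 0.035), with levels of 1.28 ± 0.515, 0.742 ± 0.530 and 2.02 ± 2.47 CPM in 100 nm PS, 1 µm PS and ISO hearts, and passed in 9 of 18 cases with 1 library left out. Its log2 fold change was -0.48 without ISO replicate 2 and -0.74 without ISO replicates 1 and 2 (adjusted p = 0.334). Il6, Cxcl2 and Bcl2a1a had too few counts to be tested.

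**Figure D5:**
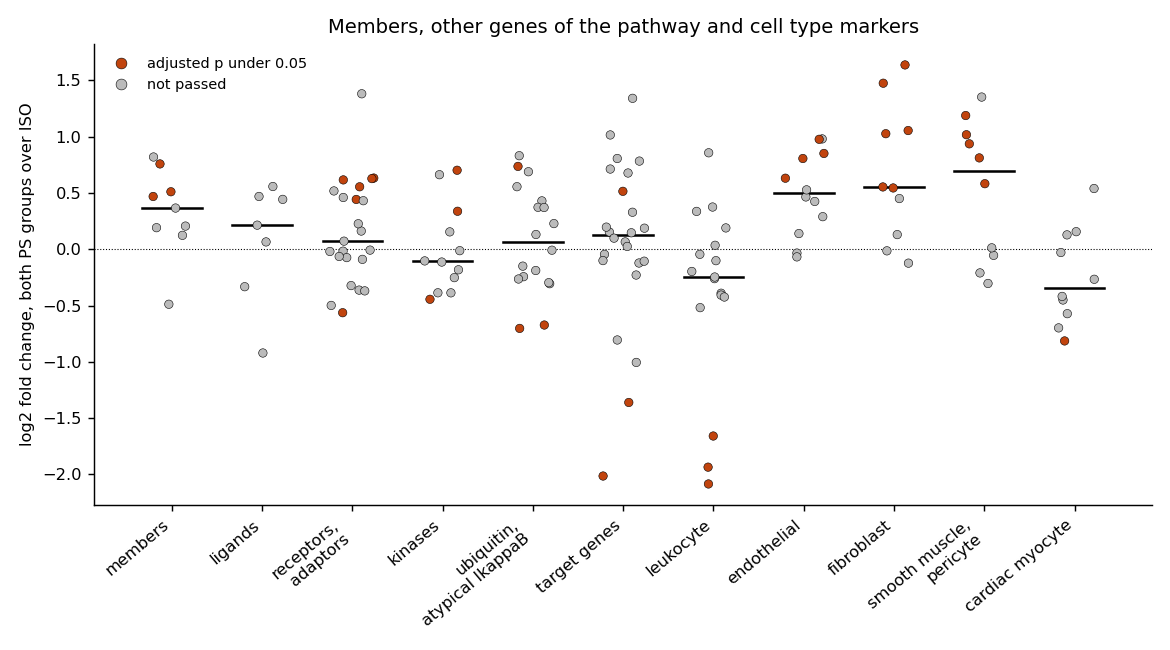
Log2 fold change of both PS groups over ISO (vertical axis) for the 9 members, for listed genes of the pathway by role and for cell type markers; each point is a gene, filled red where adjusted p was under 0.05, and lines are list medians. The medians were 0.37 for the members, 0.12 for target genes, -0.25 for leukocyte markers and 0.70 for smooth muscle and pericyte markers.

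Some markers of endothelial cells, fibroblasts and smooth muscle cells or pericytes were higher in PS hearts, and some of leukocytes were lower. For both PS groups, 4 of 12 endothelial markers were higher and 0 lower, with summed levels of 2366 to 3663 CPM in 100 nm PS hearts, 2400 to 3520 in 1 µm PS hearts and 1194 to 2741 in ISO hearts. Of 10 fibroblast markers 6 were higher (3452 to 6372, 3594 to 5125 and 2349 to 3816 CPM), and of 10 smooth muscle and pericyte markers 5 were higher (1613 to 2212, 1586 to 2319 and 733 to 2238 CPM). At 100 nm 3 endothelial, 6 fibroblast and 4 smooth muscle and pericyte markers were higher, where 3.88% of all genes were. At 1 µm 1, 1 and 4 were, where 2.89% of all genes were. Between the sizes 0 of these markers passed. Among 17 leukocyte markers 0 were higher and 3 lower (S100a9, S100a8 and Cd52), with sums of 455 to 726, 453 to 711 and 381 to 1276 CPM; without ISO replicates 1 and 2, 1 was higher (Laptm5) and 0 lower. Of 10 cardiac myocyte markers 1 was lower, Pln, with sums of 42632 to 89403, 49709 to 120465 and 39798 to 99400 CPM. The myocyte markers were abundant in every library, which fits the label of heart tissue, and no listed marker was at 0 in all libraries of a group. Without ISO replicates 1 and 2, 2 endothelial, 3 fibroblast and 3 smooth muscle and pericyte markers were higher, and after GC correction 0, 1 and 1. After that correction 4 leukocyte markers were lower and 0 higher, with a median log2 fold change of -0.51. Of the cardiac myocyte markers 2 were then lower and 0 higher, where 12.5% of all genes passed in either direction. The part of cell composition in the levels of Nfkb1, Nfkb2 and Rela was not tested.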

How the data were processed

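RNA of 18 mouse hearts was sequenced in 2 batches, the providers named in the labels. Batch 1 was deposited as raw counts, all whole, for 46548 entries keyed by Entrez number. Batch 2 was deposited as estimated counts for 57010 entries keyed by Ensembl ID; 19.6% of the nonzero values were fractional and were rounded. Per the submitters' processing notes the tools were featureCounts 1.5.0-p3, HISAT2 2.0.5, fastp, DESeq2 and StringTie 1.3.3b, with GRCm39 and mm39 as builds; which served which table is not given. Strand settings are not given in the sources used here. The 215 unnamed entries of batch 1 were left out, and the tables were joined on 35560 genes. No 2 libraries of the 23 pairs compared looked like duplicates.

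Counts were scaled by TMM and filtered by filterByExpr (minimum count 10; 14623 genes left) in edgeR 4.0.16 under R 4.3.3. The model of the robust quasi-likelihood test held group and batch, leaving 14 residual degrees of freedom among 18 libraries. Each SE was taken as the log2 fold change over the root of F. Log2 CPM used a prior count of 2. Tested on simulated data for 100 nm PS against ISO (14457 genes), the fit recovered 40% of 2-fold and 95% of 4-fold changes, with 12 false calls. The simulated counts held neither the GC trend nor the ISO libraries that stood apart, so the 12 false calls do not cover these. The longest transcript of a gene in GENCODE M21 gave its GC content and length. GC correction used a spline with 5 degrees of freedom per library. Alternatives were other scaling factors, other filters, DESeq2 1.42.0, voom of limma 3.58.1, no batch term, single batches, the replicate number as a block, GC correction, and libraries left out.

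The 9 genes, the lists and the tests were chosen with earlier results of these data known. From each list of pathway genes, the text names, for each of the comparisons with ISO, the 3 with the smallest p among those that passed, or, where none passed, the 1 with the smallest p for both PS groups. Likeness names 2 genes for each of the 3 genes with the largest SD.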

Additional observations from a re-analysis of the deposited data

Results flagged for a closer look

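Of the 27 sets of 6 values (9 genes in 3 groups), 1 had a library set apart from the others. Tnfaip3 was at 8.61 CPM in 100 nm PS replicate 5, the highest of its group, with the next library at 6.03 CPM and the lowest at 4.78 CPM. The gap was 0.674 of the range, above Dixon's 95% critical value of 0.625 for 6 samples. Chance flags about 1 in 20 groups.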

How the results depend on the processing

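Of the 9 genes, 3 passed in each comparison with ISO under RLE and upper-quartile factors, the stricter filter, DESeq2 and voom with quality weights, and 0 differed between the sizes under every alternative. Of all genes, 1519, 1212 and 2761 passed with RLE factors at 100 nm, at 1 µm and for both PS groups. With upper-quartile factors 1462, 1155 and 2700 did, and with the stricter filter 1494, 1209 and 2648 of 13579. DESeq2 called 2603, 2348 and 3759 of all genes, and voom 2914, 1825 and 3486. Without a batch term 0 of the 9 genes passed at 100 nm, 0 at 1 µm and 2 for both PS groups, where 0, 0 and 709 of all genes did. Batch 1 alone gave 0 at 100 nm, 1 at 1 µm (Rel, lower) and 2 for both (Rela higher, Rel lower), and batch 2 alone gave 0 in all 3; of all genes, 1134, 598 and 1940 passed in batch 1 and 7, 11 and 272 in batch 2. GC correction gave 0, 0 and 1 (Nfkb1), where 1, 2 and 1829 of all genes passed, the same correction without ISO replicates 1 and 2 gave 0 in all 3, as over all genes, and leaving out those libraries alone gave 0, 3 and 3. With no filter 2, 2 and 3 of the 9 genes passed, where 717, 481 and 2061 of 23862 genes did. With 1 library left out at a time, 0 to 3 of the 9 genes passed at 100 nm, 1 to 3 at 1 µm and 3 for both. Of all genes, 170 to 2283, 265 to 2334 and 1925 to 3458 passed in those fits. At 100 nm, 0 passed without 100 nm PS replicate 6, where 170 of all genes did. At that size 1 passed without ISO replicate 4 or 100 nm PS replicate 1, 2, 3 or 5, where 493 to 883 of all genes did. At 1 µm, 1 passed without ISO replicate 4 or 6 or 1 µm PS replicate 1, 3 or 5, where 265 to 830 of all genes did. With all libraries 1399 of all genes passed at 100 nm and 1081 at 1 µm. The causes of these changes were not tested.

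With the replicate number as a block, 0, 0 and 2 genes passed (Rela 0.52, adjusted p = 0.045, and Nfkb2 0.77, adjusted p = 0.048, for both PS groups), where 0, 0 and 467 of all genes did. The 18 same-numbered pairs correlated at -0.437 to 0.229, 3 of them over 0.1, and 0 libraries correlated best with their own number. No label says that a number pairs samples. The correlations were taken after fitting group and batch, and some pairs span the batches, so they cannot exclude a pairing.

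Log2 fold changes that turned sign against ISO were, at 100 nm, 1 µm and for both PS groups, as follows. After GC correction Rela was at -0.11, -0.058 and -0.086, Relb at -0.34, -0.36 and -0.35, Nfkbia at -0.14, -0.017 and -0.076, and Nfkbib at -0.16, -0.14 and -0.15. The median of all genes was then -0.16, -0.10 and -0.13. GC correction without ISO replicates 1 and 2 put Nfkbib at -0.29, -0.25 and -0.27, Nfkbia at -0.11 (100 nm) and -0.053 (both), and Rel at 0.014 (100 nm). Batch 2 alone put Rel at 0.025, 0.45 and 0.24, Nfkbib at -0.048, -0.055 and -0.052, and Nfkbia at -0.32 (100 nm) and -0.14 (both). Batch 1 alone put Relb at -0.042 (1 µm) and Tnfaip3 at -0.26 (1 µm) and -0.079 (both). Without ISO replicates 1 and 2, Nfkbib was at -0.027 (100 nm) and -0.0071 (both) and Tnfaip3 at -0.043 (1 µm). Voom put Nfkbia at -0.077 (100 nm), and the replicate block put Tnfaip3 at -0.037 (1 µm). With 1 library left out Tnfaip3 ran from -0.12 to 0.19 at 1 µm and from -0.019 to 0.29 for both. Nfkb1 and Nfkb2 turned sign in no alternative against ISO.

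Between the sizes, where every value lay within 0.19 of 0, batch 2 alone turned Nfkb1 to 0.0068, Nfkbib to -0.0066, Nfkbie to 0.22, Rel to 0.43, Relb to 0.054 and Tnfaip3 to 0.20, and batch 1 alone turned Nfkb2 to -0.0096. Without a batch term Nfkb1 was at 0.0027 and Nfkbie at 0.019. Rel was at 0.016 after GC correction and 0.000103 with the replicate block. Nfkbib was at -0.0036 with the stricter filter and -0.0197 with upper-quartile factors, which put Rela at -0.0013. With 1 library left out the ranges were -0.057 to 0.014 (Nfkb1), -0.035 to 0.12 (Nfkb2), -0.015 to 0.20 (Nfkbia), -0.063 to 0.0603 (Nfkbib), -0.13 to 0.028 (Nfkbie), -0.15 to 0.075 (Rel) and -0.0057 to 0.044 (Rela).

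Nfkbie had 0 to 50 counts per library in the ISO group, and 100 nm PS had 1 library in batch 2.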

Other observations

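Immediate early genes, which many stimuli switch on within minutes and some of which respond to NF-kappaB or restrain it, were also listed. Of 16 tested, 3 were higher and 0 lower for both PS groups against ISO by edgeR's quasi-likelihood test, where 6.8% of all genes were higher and 10.9% lower: Jun (0.70 on the log2 scale, adjusted p = 0.00913), Socs3 (1.02, adjusted p = 0.0261) and Zfp36 (0.81, adjusted p = 0.0322). Their median log2 fold change was 0.67, and 0.18 after GC correction, where 0 of 16 passed. Without ISO replicates 1 and 2, 0 of 16 passed, with a median of 0.67.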
